A study of Mus musculus with 36 samples.

Results

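The genes of oxidative phosphorylation, the set of 94 members that encode subunits of respiratory complexes I to IV and of the ATP synthase (complex V), were followed in mouse liver during experimental cholestasis. They were taken by symbol: mt-Nd, mt-Co, mt-Cytb and mt-Atp for the mitochondrial genome, and Ndufa, Ndufb, Ndufc, Ndufs, Ndufv, Sdh, Uqcr, Cox4 to Cox8 and Atp5 for the nuclear genome. Assembly factors named Ndufaf or Sdhaf (12 IDs), symbols with "-ps" (9 IDs) and 8 IDs that reached 10 normalized counts in fewer than 4 libraries were dropped. The 94 members, 13 mitochondrial and 81 nuclear, stood among 12596 genes tested and 29546 gene IDs in all. The mitochondrial members comprised 7 of complex I, 1 of complex III, 3 of complex IV and 2 of complex V. The nuclear members comprised 38 of complex I, 4 of complex II, 8 of complex III, 14 of complex IV (Ndufa4 counted there) and 17 of complex V. The 8 low IDs included Cox4i2, Cox6a2, Cox6b2, Cox7b2, Cox8b and Ndufa4l2, most of them isoforms of tissues other than liver. Cox6c2, Ndufb4c and Ndufs6b are annotated as processed pseudogenes and were kept by the rule.

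The samples were 36 livers of C57BL/6 mice in 9 groups of 4. Bile duct ligation, a surgical block of bile flow, was sampled after 7 days (BDL7) and 28 days (BDL28) and compared with sham surgery (SHAM). Mice of the drug arm received the calcineurin inhibitor cyclosporin A by gavage at 15 mg/kg in olive oil for 7 (CsA7) or 28 days (CsA28), and their controls received the oil alone (VEHICLE). The porphyrinogenic compound 3,5-diethoxycarbonyl-1,4-dihydrocollidine was fed at 0.1% by weight of the diet for 7 (DDC7) or 28 days (DDC28) against a plain diet (CTLD). Control libraries carry no day in the labels, so 1 control group served both days of a model, and its day 7 and day 28 comparisons share those libraries.

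The electron transport chain passes electrons from NADH and succinate to oxygen and pumps protons across the inner mitochondrial membrane, and the ATP synthase uses the resulting gradient to make ATP. Most subunits are encoded in the nucleus and imported, while a few hydrophobic core subunits of complexes I, III, IV and V are encoded by mitochondrial DNA and transcribed inside the organelle as long precursors that are cut into single messengers. Complex II is encoded by the nucleus alone. Hepatocytes are rich in mitochondria and need this ATP for bile acid transport, urea and glucose synthesis.

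The values are gene counts divided by 1 factor per library, called normalized counts below. Each read comes from the 3′ end of a transcript, so counts were not divided by transcript length and levels are not compared between genes. A library held 2081093 to 3770267 whole reads (median 2826073), as recovered from the values. In bulk tissue, fewer cells of a type and less RNA per cell cannot be told apart. Hepatocyte markers were present in every group: the summed level of 7 of them ranged from 59771 to 66903 in SHAM, 37893 to 47056 in BDL7, 42785 to 51989 in BDL28, 70669 to 89076 in CTLD, 42212 to 52694 in DDC7 and 42112 to 49003 in DDC28. In the cyclosporin arm it ranged from 73688 to 84707 in VEHICLE, 65229 to 72436 in CsA7, without overlap, and 68553 to 79174 in CsA28. The summed level of 8 cholangiocyte markers moved the other way, from 321 to 504 in SHAM to 1874 to 3100 in BDL7 and 995 to 2919 in BDL28, and from 333 to 428 in CTLD to 1296 to 1771 in DDC7 and 1277 to 2414 in DDC28. Several other cell types moved with the same groups. Macrophage markers (8) summed to 639 to 889 in SHAM, 2507 to 3557 in BDL7 and 1260 to 3091 in BDL28, and to 534 to 693 in CTLD, 1881 to 3475 in DDC7 and 2418 to 3744 in DDC28. Fibroblast and stellate cell markers (8) summed to 932 to 1135 in SHAM, 1927 to 2936 in BDL7 and 908 to 3387 in BDL28, and to 1178 to 1417 in CTLD, 1819 to 2275 in DDC7 and 1968 to 3355 in DDC28. Neutrophil markers (6) averaged 36.7 in SHAM, 278.9 in BDL7 and 285.9 in BDL28, and 15.0 in CTLD, 146.9 in DDC7 and 372 in DDC28. Sinusoidal endothelial markers (6) went from 933 to 1019 in SHAM to 690 to 811 in BDL7 and 347 to 598 in BDL28, and from 882 to 1049 in CTLD to 755 to 853 in DDC7 and 552 to 624 in DDC28. Skeletal muscle and pancreas markers summed to no more than 9.71 in any library. Adipose markers (5) summed to 35.6 to 59.6 in SHAM, 78.8 to 89.4 in BDL7 and 62.2 to 129.9 in BDL28. They summed to 45.3 to 71.0 in CTLD, 63.2 to 119 in DDC7 and 117.6 to 149.8 in DDC28. Red cell markers (4) went from 3417 to 7439 in CTLD to 1136 to 3370 in DDC7. Lymphocyte markers (6) averaged 8.12 in SHAM, 6.55 in BDL7 and 4.50 in BDL28, and 8.12 in CTLD, 5.24 in DDC7 and 4.42 in DDC28. Of the hepatocyte markers 6, 5, 6 and 6 of 7 were called lower in BDL7, BDL28, DDC7 and DDC28, and 0 of 7 in CsA7 and CsA28. Of the cholangiocyte markers 7, 6, 5 and 6 of 8 were called higher, of the macrophage markers 7, 5, 6 and 6 of 8, of the fibroblast and stellate cell markers 6, 4, 5 and 6 of 8, and of the neutrophil markers 3, 3, 3 and 4 of the 4 tested. Of the endothelial markers 3, 5, 2 and 5 of 6 were called lower. The part of these cells in the results below was not tested.

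Reads of several mitochondrial members may not be told apart from those of nuclear copies, because the transcripts are identical near the 3′ end, where these libraries are read. How reads were split between a member and its copy is not known. The copies of mitochondrial members named in this section are annotated as pseudogenes in a block of chromosome 1 (GRCm38, minus strand). Gm10925 for example lies at chr1:24613974-24614651 and Gm28437 at chr1:24613189-24613971. Further copies lie on chromosome 2 (Gm13339 for mt-Nd2, Gm13340 for mt-Co1 and Gm13341 for mt-Co2) and chromosome 13 (Gm4076 for mt-Nd5). The last 60 shared bases of 4 pairs are shown because they bear on how far the counts of these members can be trusted. In these pairs the shared stretch ends 1 to 3 bases before the end of the member. The sequences are those of GENCODE M21, 5′ to 3′ on the transcript strand, and each is the same in the member and in its copy.
mt-Co3 and Gm28437: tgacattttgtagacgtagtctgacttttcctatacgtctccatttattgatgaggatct
mt-Nd3 and Gm28438: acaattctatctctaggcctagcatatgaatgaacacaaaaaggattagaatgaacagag
mt-Co2 and Gm28661: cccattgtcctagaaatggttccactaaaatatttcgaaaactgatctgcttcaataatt
mt-Atp6 and Gm10925: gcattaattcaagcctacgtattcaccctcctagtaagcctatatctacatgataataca
The copies that held about as many reads as the member did so in all 36 libraries. Gm10925 held a median of 50.2% of the reads of mt-Atp6 and itself (at most 50.4%), Gm28437 held 49.9% of those of mt-Co3 (49.7 to 50.1%) and Gm28438 held 49.4% of those of mt-Nd3 (47.3 to 50.8%). Gm10222 held 53.7% for mt-Nd4l, and Gm28661 held 24.6% for mt-Co2 with a wider range, 17.7 to 27.1%. The part held by Gm29216 for mt-Co1 also varied, with a median of 7.99% and a range of 5.25 to 19.0%. In all, 9 of the 13 mitochondrial members had a copy with at least 95% identity over at least 100 bases anywhere in the transcript. In 5 of them it held at least 10% of the reads of the pair. Not every match reached the 3′ end: those of Gm28439 and Gm4076 stopped 502 and 165 bases before the ends of mt-Nd4 and mt-Nd5. Of the 81 nuclear members 23 had a pseudogene copy by the same rule, and in 3 (Cox7c, Ndufb4 and Atp5g2) it held at least 10%. The match of Ndufb4 with Ndufb4c stopped 487 bases before its end. The levels of these members are therefore uncertain, and results with the copies' reads added are given where they differ. The transcripts of mt-Atp8 and mt-Atp6 also overlap, sharing 43 bases (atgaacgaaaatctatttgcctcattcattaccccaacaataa).

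The nuclear members were also set beside their promoters, since they tended to move together. Of the 81 nuclear members 66 matched a promoter in RefSeq (GRCm38.p6), with 71 promoters among them, each reaching from 250 bases before the start to 50 after it. Searched on both strands, the NRF1 motif (GCGCA, any base, then GCGC) stood in 18 of the 71 (25.4%) against 4.6% of all 32851 promoters, the ETS motif CCGGAAG in 16 (22.5% against 8.86%), the ERR motif AAGGTCA in 8 (11.3% against 4.72%) and the YY1 motif AAGATGGCG in 7 (9.86% against 1.40%). These shares describe letters in a window, not binding. The promoters of 3 members that recur below, each from 250 bases before its start to just after it, are shown 5′ to 3′ on the gene's strand with motif matches in capitals. Cox6a1 (chr5:115348929-115349208, minus strand) held 2 NRF1 matches and 1 ETS match, and Ndufs8 (chr19:3912745-3913024, minus strand) held 1 ETS match. Cox7a2l (chr17:83514304-83514583, minus strand) held none of the 4. Each motif was absent from most of the 71 promoters, and a link between motifs and the direction of change was not tested.
Cox6a1: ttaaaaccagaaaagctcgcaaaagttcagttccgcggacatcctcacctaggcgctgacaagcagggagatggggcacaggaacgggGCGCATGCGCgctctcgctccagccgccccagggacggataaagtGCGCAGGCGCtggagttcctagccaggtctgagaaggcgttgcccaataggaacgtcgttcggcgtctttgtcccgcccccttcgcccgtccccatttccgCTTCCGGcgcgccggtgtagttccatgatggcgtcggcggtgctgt
Ndufs8: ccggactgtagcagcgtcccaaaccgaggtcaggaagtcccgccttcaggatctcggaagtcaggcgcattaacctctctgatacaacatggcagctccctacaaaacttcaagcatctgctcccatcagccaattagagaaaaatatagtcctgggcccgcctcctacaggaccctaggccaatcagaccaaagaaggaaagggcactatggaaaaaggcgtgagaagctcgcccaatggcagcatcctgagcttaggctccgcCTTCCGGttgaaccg
Cox7a2l: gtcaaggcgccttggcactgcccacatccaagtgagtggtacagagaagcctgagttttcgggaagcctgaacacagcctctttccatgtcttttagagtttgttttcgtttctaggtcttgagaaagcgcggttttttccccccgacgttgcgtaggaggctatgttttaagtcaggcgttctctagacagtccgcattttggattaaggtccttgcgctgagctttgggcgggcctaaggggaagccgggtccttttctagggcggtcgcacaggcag

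Summed over its members, each genome's contribution was lower in both ligated groups and both DDC groups than in their controls. The 13 mitochondrial members summed to 164863, 138412, 140628 and 151218 normalized counts in the 4 SHAM libraries, and to 81155, 99864, 100247 and 80941 in BDL7. In BDL28 the sums were 86755, 120672, 124073 and 129780. All BDL7 and BDL28 libraries lay below all SHAM libraries, at 0.609 and 0.775 of the control mean, and BDL28 replicate 1 lay far below the other 3 of its group. The CTLD sums were 147318, 197373, 201600 and 172232, against 104339, 109248, 130082 and 96936 in DDC7 and 90855, 95820, 121972 and 108052 in DDC28. The groups did not overlap there either, and the means stood at 0.613 and 0.580 of the control. In the cyclosporin arm the sums were 167729, 149886, 159108 and 190788 in VEHICLE, 156903, 133669, 116037 and 126950 in CsA7, and 156980, 159396, 143555 and 164072 in CsA28. Those groups overlapped, at 0.799 and 0.935 of the control mean.

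The 81 nuclear members were likewise lower in the ligated and DDC groups. Their sums were 63490, 63648, 65617 and 65822 in SHAM, 39815, 45764, 45248 and 40912 in BDL7, and 42610, 60458, 53089 and 54374 in BDL28. The means were 0.664 and 0.814 of SHAM without overlap. The sums were 60977, 66377, 68655 and 66292 in CTLD, 50866, 50390, 52729 and 49225 in DDC7, and 44768, 51972, 57114 and 53966 in DDC28, or 0.775 and 0.792 of the control mean, again without overlap. VEHICLE, CsA7 and CsA28 averaged 63593 ± 3105, 61279 ± 2052 and 59405 ± 2013 (SD, n = 4 each), and these groups overlapped.

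**Figure D1:**
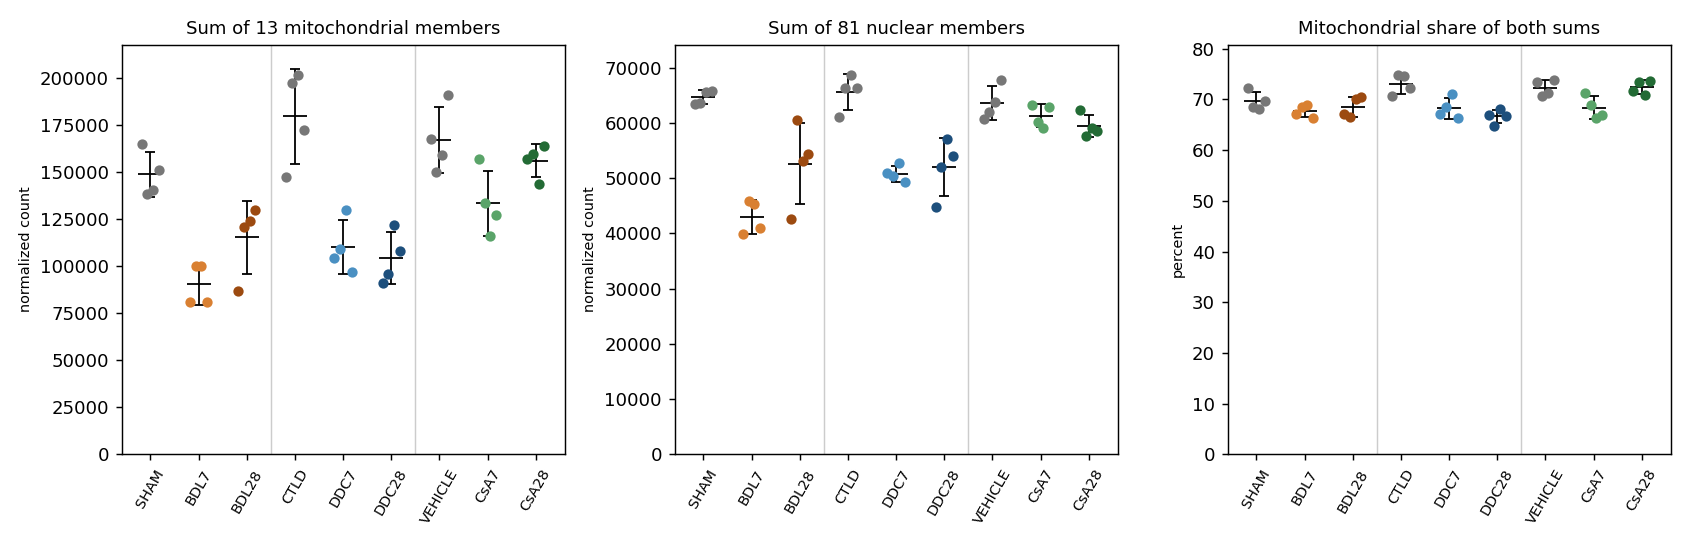
Summed normalized counts of the 13 mitochondrial members (left), of the 81 nuclear members (middle) and the mitochondrial share of both sums in percent (right) for the 9 groups. Points are libraries, and black marks are the mean ± SD of 4; the BDL7, BDL28, DDC7 and DDC28 points lie below those of their controls in both sums, while the share separates only DDC28 from its control.

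The mitochondrial share of both sums shows how far the 2 genomes moved apart. It was 69.6 ± 1.82% (SD, n = 4) in SHAM, 67.7 ± 1.18% in BDL7 and 68.5 ± 1.99% in BDL28, so BDL7 and BDL28 differed from SHAM by -1.89 and -1.09 percentage points with overlapping libraries. The BDL7 difference was -1.04 without SHAM replicate 1, and that of BDL28 was -0.24 without SHAM replicate 1, -0.60, -0.45 and -1.73 without BDL28 replicate 1, 2 and 4. It was 73.1 ± 1.97% in CTLD (70.7 to 74.8%), 68.3 ± 2.10% in DDC7 and 66.7 ± 1.36% in DDC28 (64.8 to 68.1%). The DDC28 difference of -6.43 points was the one whose libraries did not overlap; DDC7 differed by -4.81 points with overlap. CsA7 differed from VEHICLE (72.3 ± 1.5%) by -3.96 points with overlap, and CsA28 by 0.06 points. Beside the CsA7 value stand the hepatocyte markers given above, whose sums were lower in all 4 CsA7 libraries than in VEHICLE; their part in it was not tested. With the reads of the near-identical copies added to the members, the shares were higher throughout, 76.8% in CTLD and 70.7% in DDC28 for example, and within the ligation model and within the DDC model the 3 groups stood in the same order.

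Both genomes' members fell gene by gene after 7 days of ligation. All 13 mitochondrial members were called lower, with a median log2 fold change of -0.79, and 75 of 81 nuclear members were called lower and 1 higher, with a median of -0.59. The median of all genes tested was 0.01, and 18.5% of them were called lower and 20.2% higher (limma, adjusted p under 0.05). All 13 mitochondrial and 75 nuclear members had every BDL7 library below every SHAM library, which held for 19.2% of all genes. The fall reached every complex: 37 of 38 nuclear members of complex I were called lower (median -0.60), 3 of 4 of complex II (-0.54), 8 of 8 of complex III (-0.63), 12 of 14 of complex IV (-0.57) and 15 of 17 of complex V (-0.57). The nuclear members not called were Ndufs6b, Sdhd, Cox7a1, Cox7a2l and Atp5g2. The p-values measure the spread between libraries, pooled for each gene over all 9 groups, and the labels do not describe the animals further.

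At 28 days of ligation fewer members were called and the changes were smaller. Of the mitochondrial members 10 were called lower (median -0.42), and of the nuclear members 54 were called lower and 2 higher (median -0.35), against 22.7% of all genes lower and 24.1% higher. The libraries did not overlap for 9 mitochondrial and 40 nuclear members among those lower, against 18.6% of all genes. By complex, the nuclear members called lower were 28 of 38 in complex I (median -0.42) and 3 of 4 in complex II (-0.25). In complexes III, IV and V they were 5 of 8 (-0.33), 7 of 14 (-0.25) and 11 of 17 (-0.33). BDL28 replicate 1 was the lowest library for many members. Without it 7 mitochondrial and 44 nuclear members were called, numbers given without the share of all genes.

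The DDC diet lowered members of both genomes on both days. After 7 days 12 mitochondrial members were called lower (median -0.72) and 56 nuclear members (median -0.42), with none higher, against 22.1% of all genes lower and 24.7% higher. After 28 days 12 mitochondrial members were called lower (median -0.82), and 57 nuclear members were called lower and 2 higher (median -0.40), against 24.7% of all genes lower and 27.9% higher. The libraries did not overlap for 10 mitochondrial and 60 nuclear members in DDC7 (20.8% of all genes) and for 11 and 54 in DDC28 (22%). By complex, the nuclear members called lower in DDC7 and DDC28 numbered 28 and 30 of 38 for complex I, 2 and 2 of 4 for complex II, 6 and 5 of 8 for complex III, 9 and 8 of 14 for complex IV, and 11 and 12 of 17 for complex V. Their medians ran from -0.24 for complex II to -0.50 for complex III in DDC7, and from -0.28 for complex II to -0.47 for complex I in DDC28.

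No member was called in either cyclosporin comparison. In CsA7 the mitochondrial median was -0.33 and the nuclear median -0.05, against 2.14% of all genes called lower and 1.88% higher; at an unadjusted p under 0.05 there were 9 mitochondrial and 3 nuclear members. In CsA28 the medians were -0.08 and -0.11, against 0.0159% of all genes called lower and 0.00794% higher; at an unadjusted p under 0.05 there were 0 mitochondrial and 10 nuclear members. edgeR and DESeq2 on the recovered reads called 0 members in both. The libraries lay apart, lower than in VEHICLE, for 4 nuclear members in CsA7 (5.26% of all genes) and for 16 in CsA28 (2.64%).

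**Figure D2:**
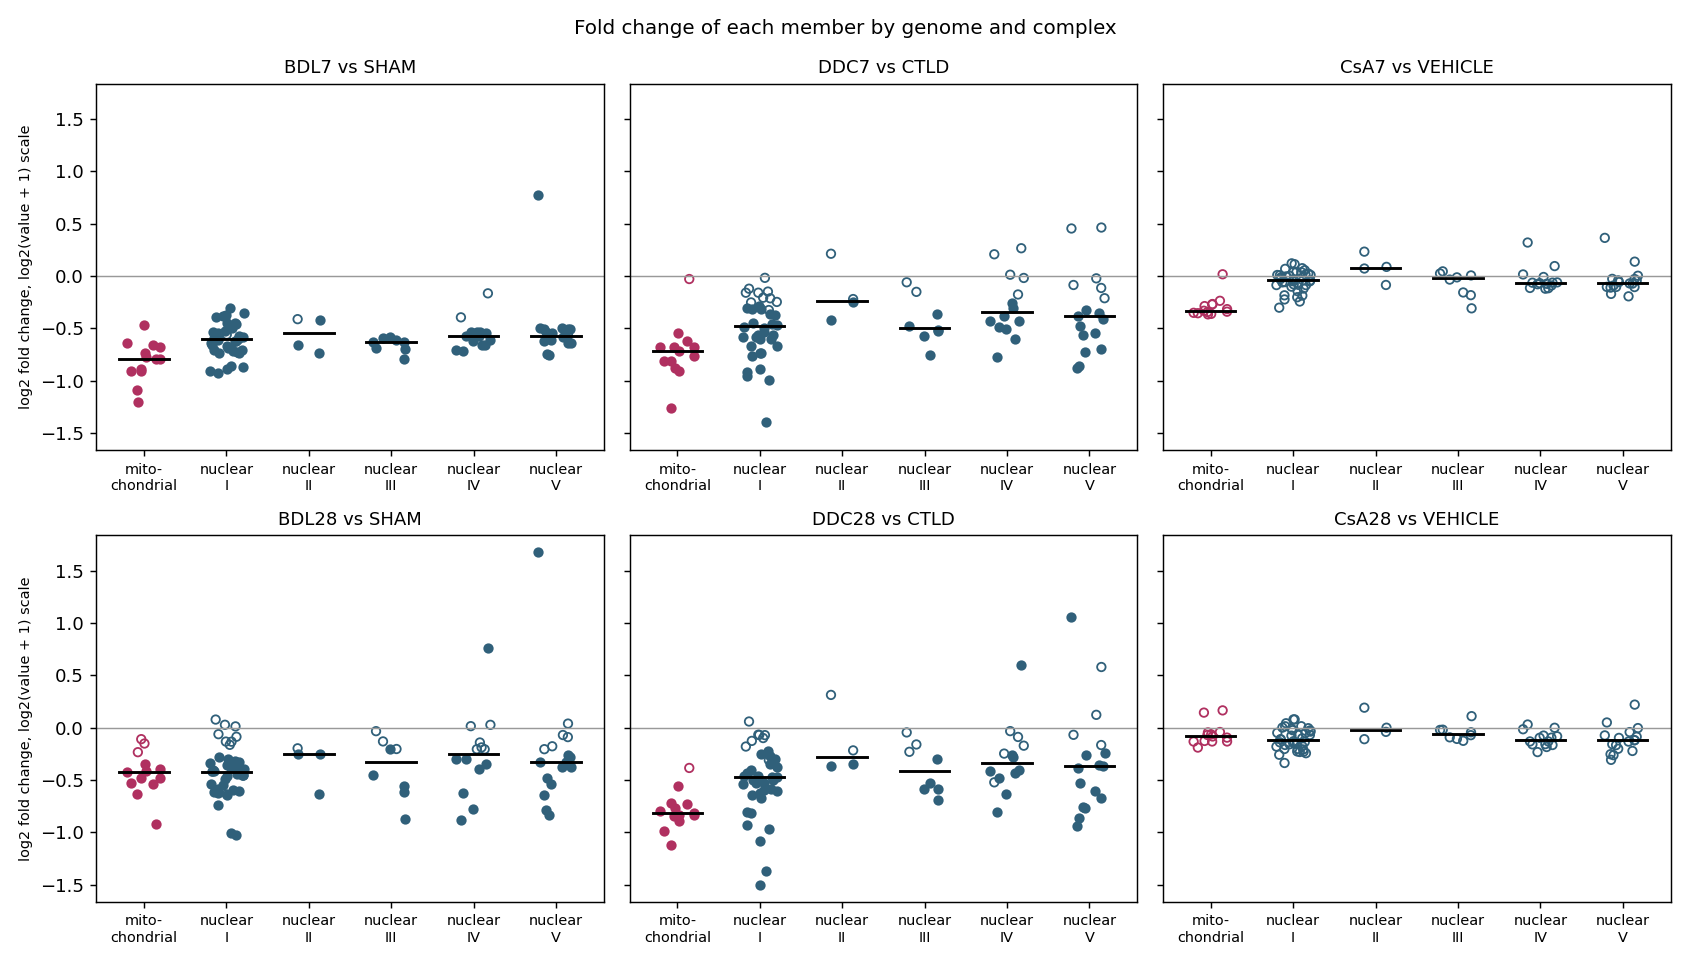
Log2 fold change of each member, on the log2(value + 1) scale, in the 6 comparisons with controls; mitochondrial members are red and nuclear members blue by complex (I to V). Filled points passed an adjusted p of 0.05 in limma, open points did not, and bars are medians: after 7 days of ligation they lie between -0.54 and -0.79, and in the cyclosporin comparisons every point is open.

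The size of these falls depends on the reference. The deposited factors leave the median of all genes near 0, whereas scaling by total count moves it up by 0.31 (BDL7), 0.26 (BDL28), 0.34 (DDC7), 0.35 (DDC28) and 0.13 (CsA7) on the log2 scale, so that 84.2%, 74.3%, 82.2%, 78.5% and 83.3% of all calls are then higher instead of 52.3%, 51.5%, 52.8%, 53.0% and 46.7%. On that scale mitochondrial members were still lower, with 12, 6, 11 and 11 called lower and none higher in BDL7, BDL28, DDC7 and DDC28, against 7.32%, 13.3%, 9.61% and 12.7% of all genes called lower. The nuclear members split: 1 higher and 53 lower in BDL7 (median -0.27), 8 and 24 in BDL28 (-0.09), 13 and 23 in DDC7 (-0.07), and 16 and 24 in DDC28 (-0.04), where 39.1%, 38.3%, 44.3% and 46.3% of all genes were called higher. Under quantile normalization the mitochondrial calls were 0 higher and 5 lower in BDL7, 4 and 2 in BDL28, 3 and 2 in DDC7, and 4 and 3 in DDC28. Of all genes 18.8%, 23.2%, 22.8% and 26.5% were then called higher and 19.4%, 22.5%, 23.8% and 26.5% lower. As a share of all reads, nuclear members held 2.11% in SHAM and 1.76% in BDL7 without overlap, but 2.06% in BDL28, and 2.04% in CTLD against 2.02% in DDC7 and 2.08% in DDC28, all with overlap. Mitochondrial members held 4.86% in SHAM, 3.70% in BDL7 and 4.50% in BDL28, and 5.57% in CTLD against 4.36% in DDC7 and 4.16% in DDC28; all but BDL28 lay apart from the control.

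To compare the 2 genomes directly, each gene was tested against the summed nuclear members of the same library. In DDC7 and DDC28 the mitochondrial members then fell further than the nuclear sum, 11 of 13 being called lower on each day with medians of -0.35 and -0.48, against 8.76% and 12.6% of all genes. The exceptions on day 28 were mt-Nd1 and mt-Nd6. In BDL7 6 of 13 were called lower (median -0.20, against 3.58% of all genes): mt-Nd3, mt-Nd4, mt-Nd4l (-0.50), mt-Nd5, mt-Cytb (-0.32) and mt-Atp8 (-0.61). In BDL28 only mt-Nd4l (-0.32) and mt-Nd6 (-0.62) were, against 11.4% of all genes, with a median of -0.11. In CsA7 mt-Nd4 and mt-Cytb (-0.29) were called lower against 0.992% of all genes, with a median of -0.28; both calls were lost when the copies' reads were added or the nuclear median was the reference, and the count was 6 without CsA7 replicate 1, 3 without VEHICLE replicate 2 and 0 without any other single library. In CsA28 0 were called, with a median of 0.01. No mitochondrial member was called higher on this scale in any of the 6 comparisons, on which 61.5% (BDL7), 39.8% (BDL28), 44.1% (DDC7), 44.1% (DDC28), 1.62% (CsA7) and 0.0238% (CsA28) of all genes were called higher and 0% in CsA28 lower.

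mt-Co1, the catalytic subunit of cytochrome c oxidase, fell in each ligation and DDC group. It had 8690, 7263, 7483 and 8370 normalized counts in SHAM, 4255, 4758, 5443 and 4155 in BDL7, and 3869, 6266, 7098 and 7264 in BDL28. The BDL7 libraries lay well below SHAM (log2 -0.78 ± 0.14 SE, adjusted p = 2.57e-05), and 1 BDL28 library overlapped SHAM at its lower edge (-0.42, adjusted p = 0.0129; -0.21 and not called without BDL28 replicate 1). It had 8309, 11178, 11213 and 9986 in CTLD, 5437, 5585, 5641 and 4841 in DDC7, and 4697, 5345, 6197 and 5694 in DDC28. Both DDC groups were far below their control, with log2 fold changes of -0.91 and -0.89 (adjusted p = 1.58e-06 and 1.64e-06).

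mt-Cytb, the only complex III subunit encoded in the organelle, carries the quinone sites of that complex. Its values were 21555, 18342, 18901 and 20138 in SHAM, 9900, 11843, 10633 and 9654 in BDL7, and 10917, 15608, 15530 and 15171 in BDL28. Neither ligated group overlapped SHAM, and the log2 fold change was -0.91 ± 0.12 at 7 days (adjusted p = 1.58e-07) and -0.48 at 28 days (adjusted p = 0.00119). Its values were 19792, 26832, 25575 and 22227 in CTLD, 13806, 14236, 17690 and 13148 in DDC7, and 11580, 12361, 15609 and 13198 in DDC28 (-0.68 and -0.84, adjusted p = 1.51e-05 and 3.12e-07), with no overlap. In the cyclosporin arm it had 20714, 19658, 21652 and 25561 in VEHICLE and 20466, 16968, 15109 and 16519 in CsA7; these overlap through 1 library, and the change of -0.34 did not pass the test (adjusted p = 0.0993). In CsA28 the change was -0.07.

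mt-Nd1, a membrane subunit of complex I next to the quinone site, moved least of the mitochondrial members in BDL7. It had 23140, 19381, 18900 and 21425 in SHAM and 12777, 16844, 17810 and 12938 in BDL7 (-0.47 ± 0.14, adjusted p = 0.00797), and its change in BDL28 was -0.15 and not called. It had 19346, 25706, 26943 and 23108 in CTLD, 14657, 16345, 19870 and 14337 in DDC7, and 13766, 13831, 19619 and 17884 in DDC28. The changes were -0.55 on both days (adjusted p = 0.00181 and 0.00129), and in each group the highest library overlapped the lowest CTLD library.

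mt-Atp6 and mt-Atp8 encode the membrane subunits of the ATP synthase on overlapping stretches of 1 messenger. mt-Atp6 had 12042, 9595, 10343 and 10554 in SHAM, 5641, 7342, 7021 and 5646 in BDL7, and 6140, 9034, 9245 and 9538 in BDL28. Both groups lay below SHAM, at -0.74 (adjusted p = 3.14e-05) and -0.34 (adjusted p = 0.0327), the latter not called without BDL28 replicate 1 (-0.19), SHAM replicate 1 (-0.28) or SHAM replicate 4 (-0.34). In CTLD it had 11180, 14678, 15342 and 13573, against 7736, 8303, 10225 and 7042 in DDC7 and 6726, 6891, 9308 and 7827 in DDC28, with changes of -0.72 and -0.83 (adjusted p = 3.15e-05 and 2.3e-06) and no overlap.

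mt-Atp8 had the largest fall of the mitochondrial members in BDL7, DDC7 and DDC28 (named here after its values were seen, as are the next 3 members). It precedes mt-Atp6 on the same messenger, and reads come from the 3′ end, so its counts are not those of a separate messenger. Why its changes differed from those of mt-Atp6 was not tested. It had 1115, 947, 981.6 and 1038 in SHAM, 417.7, 461.8, 464.6 and 428.9 in BDL7, and 510.6, 1097, 1147 and 875.7 in BDL28. Every BDL7 library lay below the lowest SHAM library (-1.20 ± 0.15, adjusted p = 1.66e-07), whereas 2 of 4 BDL28 libraries reached the SHAM values and the change of -0.23 was not called. In the diet arm it had 1500, 1946, 2008 and 1727 in CTLD, 795.7, 735.1, 749.4 and 689.8 in DDC7, and 655.2, 811.8, 1035 and 817.5 in DDC28 (-1.27 and -1.12, adjusted p = 4.31e-08 and 2.44e-07), without overlap.

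mt-Nd5 and mt-Nd6 both belong to complex I, and mt-Nd6 is the one protein gene read from the light strand of mitochondrial DNA. Their changes were not tested against each other, and a link to the strand was not tested. mt-Nd5, a proton-pumping subunit, had 7690, 6471, 6463 and 7408 in SHAM, 3462, 3989, 3957 and 3698 in BDL7, and 4277, 7502, 7859 and 6989 in BDL28. It fell by 0.89 on the log2 scale in BDL7, while 3 of 4 BDL28 libraries reached the SHAM values (-0.11, not called). mt-Nd6 had 163.8, 117.9, 128.3 and 134 in SHAM, 73.5, 87.5, 84.8 and 66.4 in BDL7, and 54.1, 111.2, 76.2 and 54.7 in BDL28, all ligated libraries being below all SHAM libraries (-0.79 and -0.92, adjusted p = 0.000649 and 7.86e-05). Under DDC it was not called (-0.03 and -0.38). Its control groups also differed, with a mean of 68.4 in VEHICLE and 93.9 in CTLD, and a SHAM level above VEHICLE by 0.98 on the log2 scale (adjusted p = 0.0002). mt-Nd4l, a small membrane subunit, had changes of -1.09, -0.63, -0.81 and -0.72 in BDL7, BDL28, DDC7 and DDC28. The last 7 bases of its transcript are the first of mt-Nd4, and how far the counts of these members are separate was not tested.

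**Figure D3:**
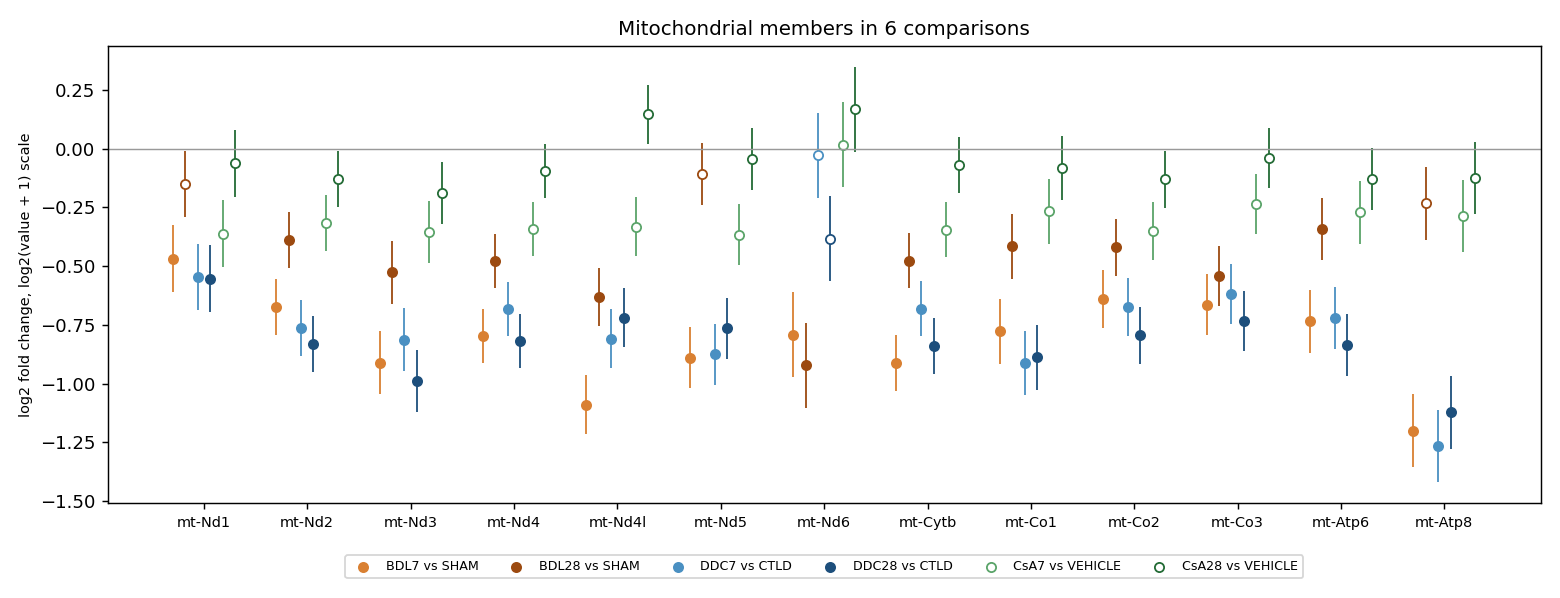
Log2 fold change ± SE of the 13 mitochondrial members in the 6 comparisons with controls, on the log2(value + 1) scale; filled points passed an adjusted p of 0.05. mt-Atp8, which shares a messenger with mt-Atp6, lies lowest (-1.20 in BDL7, -1.27 in DDC7), mt-Nd6 is near 0 in DDC7 (-0.03), and the cyclosporin points are all open.

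Among the nuclear members, complex I held the largest falls. Ndufs1, the largest core subunit, which carries iron-sulfur clusters, had 612.4, 685.1, 561.8 and 670 normalized counts in SHAM and 349.2, 424.2, 427.7 and 416 in BDL7, with no overlap. Its log2 fold changes were -0.64 in BDL7, -0.54 in BDL28, -0.48 in DDC7 and -0.46 in DDC28 (SE 0.10, adjusted p = 5.4e-06, 5.15e-05, 0.000227 and 0.000338). Ndufs8, a core iron-sulfur subunit on the path to the quinone, had 151.4, 150.2, 150.4 and 143.5 in SHAM, 87.7, 93.6, 112.7 and 92.4 in BDL7, and 66.9, 69.8, 61.3 and 97.5 in BDL28. It was lower in every ligated library (-0.63 and -1.02, adjusted p = 7.29e-06 and 2.99e-10). Its values were 198.7, 195.9, 195.7 and 199.7 in CTLD, 92.2, 102.3, 104.6 and 94.9 in DDC7, and 96.1, 101.1, 103.1 and 102 in DDC28 (-1.0 and -0.97, adjusted p = 8.23e-10 and 8.61e-10), with little spread within the 3 groups.

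Ndufv3, a small accessory subunit of the NADH-oxidizing arm, had among the largest falls under DDC. It had 728.8, 730.2, 712.5 and 621.9 in CTLD, 275.2, 265.3, 250.1 and 270.5 in DDC7, and 241.6, 304.1, 249.6 and 289.3 in DDC28 (-1.39 and -1.37 ± 0.09, adjusted p = 2.48e-14 and 8.46e-15). In SHAM it had 344, 371.1, 371.4 and 418.6, against 208, 229.9, 232.3 and 243.5 in BDL7 and 213.5, 259.1, 273 and 254 in BDL28 (-0.72 and -0.59, adjusted p = 6.83e-08 and 1.34e-06). The 4 treated groups lie close together and the controls do not: SHAM stood below CTLD by a log2 difference of -0.89 (adjusted p = 2.9e-08), while VEHICLE had 673.6, 671, 677.5 and 631.6. The fall against SHAM was smaller than that against CTLD by 0.67 on the log2 scale at 7 days (adjusted p = 0.00094) and by 0.77 at 28 days.

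Other complex I members took their largest falls in different groups. Ndufb11, an accessory subunit of the membrane arm, had changes of -0.93 in BDL7 (adjusted p = 6.15e-10), -0.63 in BDL28, -0.77 in DDC7 and -0.64 in DDC28. Ndufb9, also of the membrane arm, had -0.90, -0.34, -0.59 and -0.54 in the same order, and the BDL28 value was not called without BDL28 replicate 1 (-0.19) or SHAM replicate 4 (-0.30). Ndufs7, which carries the last iron-sulfur cluster before the quinone, had -0.89, -0.64, -0.89 and -1.09. Ndufb7 reached its largest fall in BDL28 (-1.0, adjusted p = 2.71e-07, against -0.69, -0.53 and -0.59 elsewhere), and Ndufa12, of the matrix arm, its largest under DDC (-0.96 and -0.93, against -0.54 and -0.41 after ligation). The annotated pseudogene Ndufs6b had -1.50 in DDC28 (adjusted p = 5.99e-05), with few reads.

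Complex II, which links the citric acid cycle to the chain, moved less evenly. Sdhb, its iron-sulfur subunit, had changes of -0.66 in BDL7 (adjusted p = 1.02e-06), -0.25 in BDL28, -0.42 in DDC7 and -0.36 in DDC28. The BDL28 value overlapped SHAM (adjusted p = 0.0304) and was lost without BDL28 replicate 1 (-0.15) or 4 (-0.20) or SHAM replicate 2 (-0.23) or 3 (-0.24). Sdha, the flavoprotein that oxidizes succinate (named after its values were seen, as are Sdhd, Uqcrh, Atp5k, Atp5j2, Ndufa1, Ndufb3 and Atp5l), had -0.73, -0.64, -0.25 and -0.35. Sdhd, one of the membrane anchors, was not called in any comparison, with values of -0.41, -0.20, 0.21 and 0.31.

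In complex III, Uqcrc2, a core protein of the matrix side, had changes of -0.59 in BDL7, -0.58 in DDC7 and -0.59 in DDC28. In BDL28 it had -0.20 with overlapping libraries (adjusted p = 0.0482), and that call was lost when any 1 library but BDL28 replicate 2 or 3 was left out (values -0.12 to -0.21). Its partner Uqcrc1 had -0.70, -0.87 (adjusted p = 1.45e-05), -0.51 and -0.69 in BDL7, BDL28, DDC7 and DDC28. Uqcrh, the hinge subunit near cytochrome c1, was lower after ligation (-0.63 and -0.45) but near its control under DDC (-0.06 and -0.04).

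Complex IV held both typical members and exceptions among its isoforms. Cox4i1, the ubiquitous form of subunit 4, had 733.5, 784.4, 887.9 and 859.7 in SHAM, 480.4, 520.8, 553.4 and 502.2 in BDL7, and 533.2, 848.9, 762.4 and 755.6 in BDL28. It fell in BDL7 (-0.66, adjusted p = 9e-06), while 3 BDL28 libraries stood among the SHAM values (-0.19, not called). It had 817, 921.2, 964.3 and 1020 in CTLD, 575, 657.6, 677.6 and 548.9 in DDC7, and 559.9, 659.4, 789.5 and 775.2 in DDC28 (-0.60 and -0.43, adjusted p = 3.16e-05 and 0.00134), with every DDC library below every control. Cox6a1, the liver form of subunit 6A whose promoter is shown above, had 1172, 1079, 1216 and 1181 in SHAM, 668.4, 741.5, 721.9 and 691.5 in BDL7, and 671, 768.1, 797.7 and 786.7 in BDL28. Its changes were -0.72, -0.62, -0.77 and -0.80 in BDL7, BDL28, DDC7 and DDC28 (SE 0.08). Cox8a had -0.71, -0.29, -0.43 and -0.41, the BDL28 value not being called without BDL28 replicate 1 (-0.18). Cox6b1 had -0.57, -0.40, -0.26 and -0.26, with -0.19 and no call in DDC28 without DDC28 replicate 1.

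The 7A family split. Cox7a2, its liver form, had changes of -0.62, -0.78, -0.51 and -0.63 in BDL7, BDL28, DDC7 and DDC28. Cox7a2l, a related protein that joins complexes III and IV into supercomplexes and of which C57BL/6 mice are known to carry a short variant, rose instead. It had 525.7, 546.1, 536.5 and 520.6 in SHAM, 479.6, 528.9, 483.6 and 412.9 in BDL7, and 593.2, 1508, 967.6 and 769.5 in BDL28. It did not differ from SHAM beyond the threshold in BDL7 (-0.17) and rose in every BDL28 library (0.76 ± 0.15, adjusted p = 6.48e-05), by 0.52 without BDL28 replicate 2. It had 452.1, 440.4, 387.5 and 439.7 in CTLD, 524.2, 464.3, 551.1 and 529 in DDC7, and 572.8, 675.1, 737 and 622.8 in DDC28. Every DDC library lay above every CTLD library, with 0.27 in DDC7 not passing the test (adjusted p = 0.139) and 0.60 in DDC28 passing it (adjusted p = 0.000949). Cox7a1, the muscle and heart form, had few reads in liver and changed by -0.88 in BDL28 (adjusted p = 0.0232) with overlap; that call was lost without BDL28 replicate 2 (-0.64) or SHAM replicate 1 or 2 (-0.75 each). Ndufa4, now placed in complex IV, had -0.53, -0.14, -0.31 and -0.28, the second not called; the DDC28 call was lost without DDC28 replicate 1 (-0.20) or 2 (-0.24) or CTLD replicate 4 (-0.24).

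The ATP synthase members differed in where they fell. Atp5b, the catalytic beta subunit, had 1594, 1572, 1617 and 1500 in SHAM and 1049, 1182, 1143 and 1055 in BDL7 (-0.51, adjusted p = 2.13e-06), with no overlap. It was not called in BDL28 (-0.09), DDC7 (-0.11, adjusted p = 0.225) or DDC28 (-0.16, adjusted p = 0.0679). The 3 genes Atp5g1, Atp5g2 and Atp5g3 encode the same mature c subunit of the rotor with different import sequences, and they moved apart. Atp5g1 had 838, 793.1, 796.4 and 779.1 in SHAM and 428, 421.7, 424.4 and 607.7 in BDL28, and its changes were -0.54, -0.79, -0.86 and -0.86 in BDL7, BDL28, DDC7 and DDC28. Atp5g3 was lower after ligation (-0.49 and -0.33) and near its control under DDC (-0.09 and -0.07), and Atp5g2 was not called, with -0.57, 0.04, 0.46 and 0.58. The Atp5g2 values are uncertain, because the pseudogene Gm10175 matches the last 127 bases of its transcript without a mismatch and held 82.1% of the reads of the pair. The small subunits Atp5k (-0.76, -0.83, -0.57 and -0.76) and Atp5j2 (-0.62, -0.54, -0.72 and -0.76) were lower in all 4 comparisons.

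Atp5s, which encodes coupling factor B, a protein associated with the ATP synthase, rose. It had 15.1, 7.45, 16.8 and 10.7 normalized counts in SHAM, 21.7, 33.6, 17.0 and 16.0 in BDL7, and 34.4, 45.9, 37.1 and 46.1 in BDL28. The BDL28 libraries were all above SHAM (1.68, adjusted p = 1.48e-06), whereas BDL7 overlapped SHAM (0.77 ± 0.26, adjusted p = 0.0153) and was not called without BDL7 replicate 2 or SHAM replicate 2 (0.56 each). It had 15.2, 21.1, 17.0 and 14.2 in CTLD, 33.4, 18.4, 17.9 and 26.2 in DDC7, and 33.7, 29.2, 40.7 and 41.3 in DDC28. DDC28 lay above all controls (1.06, adjusted p = 0.000681) and DDC7 overlapped them (0.45, adjusted p = 0.143).

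**Figure D4:**
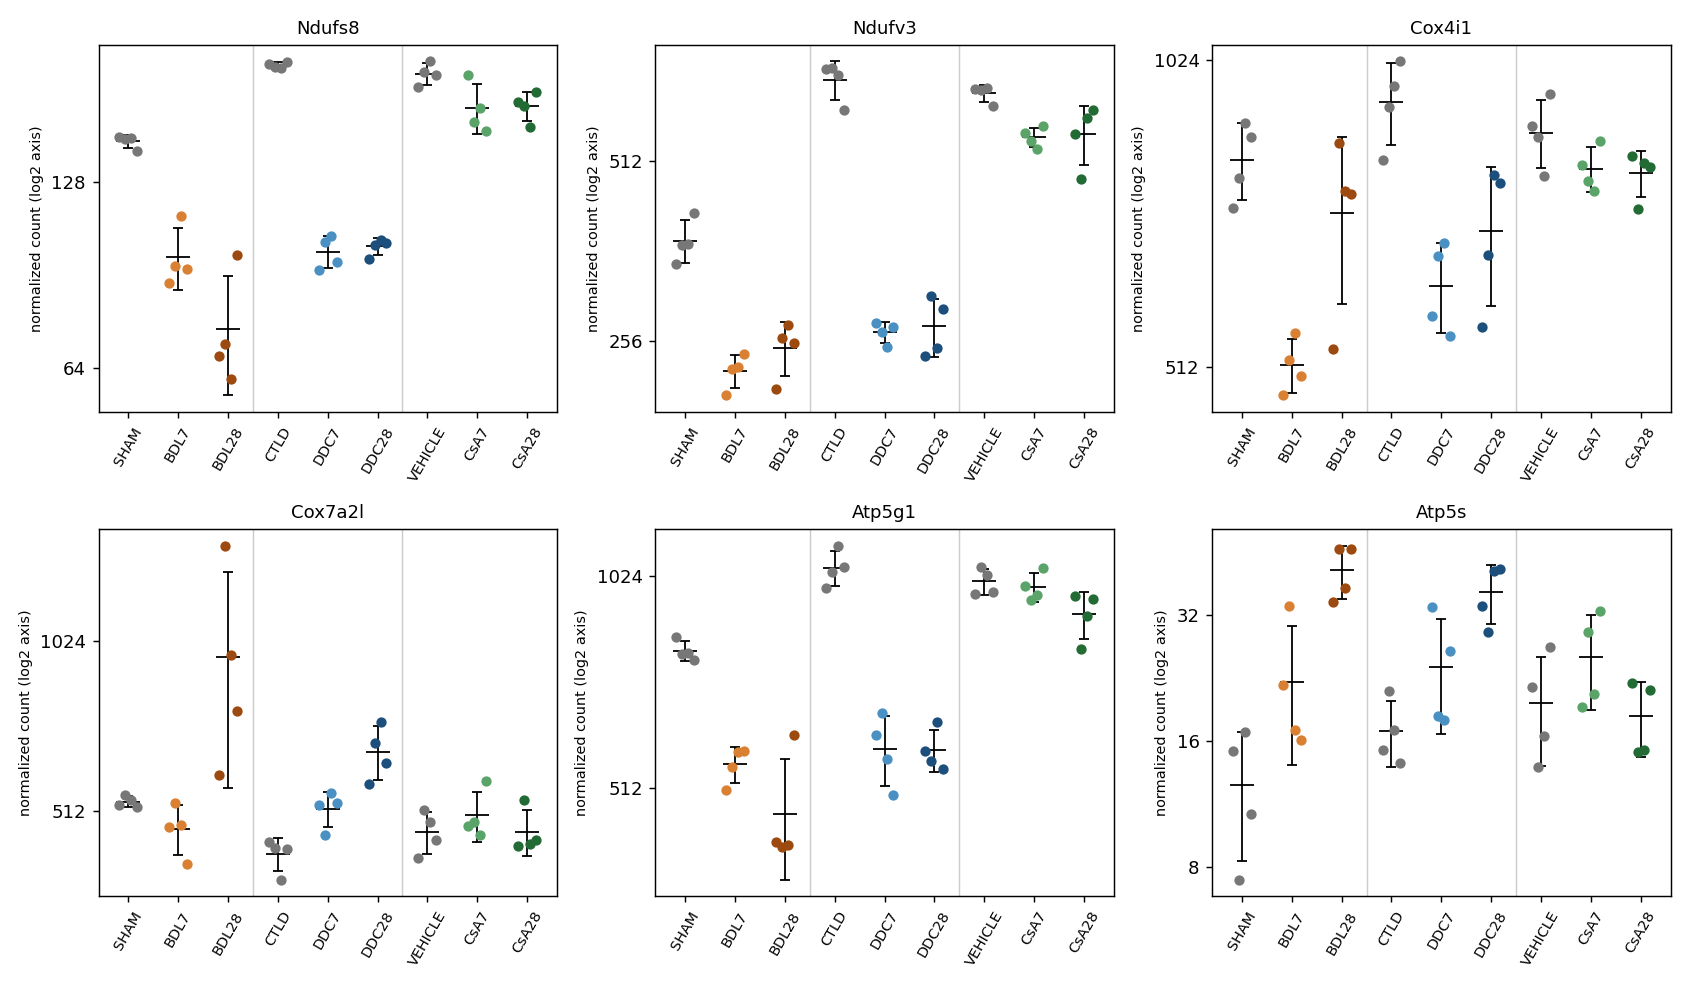
Normalized counts (log2 axis) of 6 nuclear members in the 9 groups; points are libraries and black marks the mean ± SD of 4. Ndufs8, Ndufv3 and Atp5g1 lie below their controls in all 4 ligation and DDC groups, Cox4i1 overlaps SHAM in BDL28, and Cox7a2l (593 to 1508 in BDL28 against 521 to 546 in SHAM) and Atp5s lie above theirs at 28 days.

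The 28-day and 7-day groups of each model were then compared directly. After ligation 8 mitochondrial members (median 0.36) and 39 nuclear members (median 0.25) were called higher at 28 than at 7 days and 2 nuclear members lower, against 14% of all genes higher and 16.7% lower. The libraries did not overlap for 2 mitochondrial and 15 nuclear members among those higher, against 10.9% of all genes. mt-Atp8 was higher by 0.97 (adjusted p = 1.67e-05) and mt-Nd5 by 0.78 (adjusted p = 2.6e-05), and Cox7a2l by 0.93 (adjusted p = 1.48e-05). Relative to the nuclear sum, mt-Nd5 (0.50) and mt-Atp8 (0.68) were called higher, against 5.63% of all genes. With 1 library left out the number of mitochondrial members called ran from 4 to 11. When only BDL7 and BDL28 were fitted, 3 mitochondrial and 17 nuclear members were called higher, against 8.95% of all genes. Under DDC 0 members were called between the days, against 2.07% of all genes higher and 3.63% lower; 0 mitochondrial and 9 nuclear members had an unadjusted p under 0.05 in limma, and edgeR and DESeq2 called 0. Under cyclosporin only mt-Nd4l was called (0.48 ± 0.12, adjusted p = 0.0299, overlapping libraries, against 1.37% of all genes higher and 1.07% lower), and leaving out 1 library removed that call in 6 of 8 cases. Relative to the nuclear sum mt-Nd4, mt-Nd4l, mt-Nd5 and mt-Cytb were higher at 28 days of cyclosporin (1.33% of all genes), with 1 to 5 members called when 1 library was left out.

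The effects of ligation and DDC were compared as differences between fold changes. At 7 days 0 mitochondrial members and 12 nuclear members differed, 11 of them lower after ligation, against 8.46% of all genes in either direction and 4.68% lower. Atp5b (-0.39) and Atp5g3 (-0.41) of the ATP synthase, Ndufb3 (-0.62) and Ndufa1 (-0.51) of complex I, Uqcrh (-0.57), Sdha (-0.48) and Atp5l (-0.56) fell further after ligation, and Ndufv3 fell further under DDC. At 28 days mt-Nd5 (0.66, adjusted p = 0.021) and mt-Atp8 (0.89, adjusted p = 0.0089), and the nuclear members Ndufa12 (0.53), Ndufv3 (0.77) and Uqcrc2 (0.38), had fallen less after ligation than under DDC, and Uqcrh (-0.40) had fallen more, against 10.3% of all genes. A difference between fold changes holds the difference between the controls as well. Of the 12 members at 7 days all 12 differed between SHAM and CTLD in the direction opposite to the difference of effects, 5 of them past the threshold (Uqcrh 0.35, Sdha 0.31, Atp5l 0.31, Ndufb3 0.37 and Ndufv3 -0.89, SHAM minus CTLD). At 28 days all 6 did so past the threshold, mt-Nd5 by -0.54, mt-Atp8 by -0.81, Ndufa12 by -0.56, Uqcrc2 by -0.31, Ndufv3 by -0.89 and Uqcrh by 0.35. Over all members, 3 of 13 mitochondrial and 23 of 81 nuclear members differed among SHAM, CTLD and VEHICLE, against 19.4% of all genes. SHAM was the group apart, with 16 nuclear members lower and 4 higher than in CTLD (7.84% and 8.09% of all genes), while VEHICLE and CTLD differed in 0 members (0.0635% of all genes).

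The effect of cyclosporin differed from those of ligation and DDC for many members. At 7 days 7 mitochondrial and 63 nuclear members had lower fold changes after ligation than under cyclosporin, against 11.9% of all genes, and 5 and 40 had lower ones under DDC, against 12.8%. At 28 days the numbers were 3 and 28 for ligation (15% of all genes) and 11 and 33 for DDC (17.1%). In each, 2 nuclear members were higher, a number given without the share of all genes.

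The genes that serve the complexes were taken from lists of assembly, expression and upkeep factors. Among all genes 18.5%, 22.7%, 22.1% and 24.7% were called lower in BDL7, BDL28, DDC7 and DDC28, and 20.2%, 24.1%, 24.7% and 27.9% higher. Of 78 proteins of the mitochondrial ribosome, which translates the 13 mitochondrial members, 41, 38, 41 and 42 were called lower in that order and 0, 3, 1 and 3 higher, with medians of -0.32, -0.31, -0.35 and -0.35. Both mitochondrial ribosomal RNAs were called lower in each (medians -0.43, -0.49, -0.82 and -0.83). Of 17 complex I assembly factors 10, 8, 8 and 8 were called lower and 0, 1, 1 and 1 higher, among the former Ecsit (-1.06 in BDL7) and Timmdc1 (-1.50 and -1.62 under DDC). Of 33 assembly factors of complexes II to IV 15, 17, 17 and 19 were called lower and 0, 4, 0 and 1 higher, the former including Sco2, a copper carrier for complex IV (-1.13 in BDL7). Cycs, the cytochrome c that carries electrons between complexes III and IV, fell from 470.9 ± 27.7 to 297.1 ± 15.5 in BDL7 (-0.66, adjusted p = 4.96e-07) and from 615.2 ± 60.4 to 345.8 ± 39.2 in DDC28 (-0.83, adjusted p = 2.37e-09). Etfb, which feeds electrons from fatty acid oxidation to the chain, fell from 802.6 ± 14.6 to 457.6 ± 39.0 in BDL7 (-0.81). Of 18 citric acid cycle genes 10, 6, 10 and 10 were called lower and 1, 3, 2 and 2 higher, among the latter Idh2 under DDC (0.67 and 0.63).

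Genes that control the messengers of the organelle did not move as 1 group. Of 19 genes of mitochondrial DNA replication and transcription 6, 5, 7 and 6 were called lower and 0, 1, 1 and 0 higher, and in BDL28 the number lower was near the 22.7% of all genes. Those lower included Tfb2m, a transcription factor of the organelle (-0.84 in BDL7), and Tfam, which packs mitochondrial DNA (-0.34 in BDL7). Of 21 genes of mitochondrial RNA processing and stability 9, 6, 5 and 3 were called lower and 1, 3, 0 and 3 higher, near or below the share of all genes in DDC7 and DDC28. Among them Lrpprc, which stabilizes mitochondrial messengers, fell from 556.7 ± 44.9 to 342.6 ± 18.8 in BDL7 (-0.70, adjusted p = 1.63e-07) and changed by -0.51 in BDL28, but by -0.08 and -0.10 under DDC, where it was not called. Among 14 nuclear regulators 3 were called lower in each of the 4 comparisons and 0, 2, 3 and 3 higher, near or below the shares of all genes. Ppargc1a, a coactivator of mitochondrial biogenesis, rose from 54.1 ± 16.1 to 142 ± 23.7 in BDL28 (1.42, adjusted p = 0.000376), and from 40.8 ± 7.98 in CTLD to 103.5 ± 25.4 in DDC7 (1.31) and 141.7 ± 68.8 in DDC28 (1.65), but was 59.9 ± 4.57 in BDL7 (0.20, not called). Ppara, a regulator of fatty acid oxidation, fell by 1.21, 1.32, 1.68 and 1.23 on the log2 scale. Slc25a4, an ADP/ATP carrier isoform best known from heart and muscle, rose from 20.0 ± 6.05 in SHAM to 64.2 ± 9.92 in BDL7 and 110.9 ± 36.5 in BDL28, and from 28.0 ± 7.11 in CTLD to 64.1 ± 8.15 in DDC7 and 103.3 ± 12.4 in DDC28.

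Across the 9 group means, on the log2 scale, the genes outside the organelle whose pattern was most like that of the summed mitochondrial members were Gm10925 (Pearson r 0.991), Apoc3 (0.985), Gm28661 (0.985), B3gat3 (0.985) and Gm28437 (0.982), of which 3 are the chromosome 1 copies described above. These values describe 9 points that share their libraries with the sum. The members least like that sum were Atp5s (r -0.59), Cox7a2l (-0.44), Atp5g2 (-0.27), Sdhd (-0.08), Atp5l (0.07) and, among the mitochondrial members, mt-Nd6 (0.24).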

How the data were processed

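RNA from 36 mouse livers was sequenced with a QuantSeq 3′ kit and molecular identifiers, per the labels' protocols. The deposited table holds a normalized signal: from its values, each library's count per gene was divided by a single factor. The submitters' processing notes name the build GRCm39 and the tools STAR 2.7.9a, RSEM 1.3.1, UMI-tools 1.1.1, DESeq2 and Trim Galore, without their roles. Whole reads were recovered for 100% of values within 0.001 read. Symbols came from GENCODE M21 (29121 of 29546 IDs). No coordinates were converted between builds.

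Genes that reached 10 in 4 or more libraries were tested with limma 3.58.1 (R 4.3.3; trend and robust) on log2(value + 1), with 9 group means over 36 libraries, 2-sided, and Benjamini-Hochberg adjustment within each contrast over 12596 genes; a call is an adjusted p under 0.05. Fold changes are on that scale and understate changes of low genes. To compare genomes, each library was rescaled so that its summed nuclear members equalled their geometric mean over libraries. The same fit on log2(value + 1) followed. edgeR 4.0.16 and DESeq2 1.42.0 on recovered reads, other scalings, pseudocounts, filters, a replicate block, left-out replicates and added copies were alternatives; the copies were added after seeing the data. On simulated data limma recovered 64% to 77% of 2-fold and 22% to 35% of 1.5-fold changes over the 6 comparisons with controls. Each simulation held only the groups compared, with 100 genes changed per fold among 12596. It therefore does not give the power of the fit over 36 libraries.

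The members and lists were chosen with earlier results of these data known. The rule for named genes took 4 mitochondrial members, 1 anchor per complex, up to 3 non-overlapping called nuclear members per direction with the largest change, isoform families, up to 3 genes per other list by lowest adjusted p, and the 5 genes most like the mitochondrial sum. Copies were pseudogenes found by aligning transcripts, with at least 95% identity over at least 100 bases.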

Additional observations from a re-analysis of the deposited data

Results flagged for a closer look

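In a search of 288 groups of 4 libraries (29 named members and 3 summary values, the sums of both genomes and the mitochondrial share, in 9 groups), 17 held 1 library apart from the other 3, its gap to the nearest being above Dixon's 95% critical share of the group's range. Chance flags about 1 group in 20. Each value is a normalized count, with the nearest other library of its group after it.

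In BDL28, replicate 1 was low for mt-Cytb (10917 against 15171) and mt-Atp6 (6140 against 9034), replicate 2 high for Cox6b1 (898.6 against 693.5) and replicate 4 high for Atp5g1 (607.7 against 428). In BDL7, replicate 3 was high for Ndufb11 (315.1 against 276.7), replicate 1 low for Ndufs1 (349.2 against 416) and replicate 2 high for Ndufs6b (27.5 against 13). In DDC28, replicate 2 was high for Ndufs6b (22.8 against 8.27) and replicate 3 high for Uqcrc1 (231.5 against 169.2), and in DDC7 replicate 3 was high for Cox6b1 (885.9 against 810.9). In CsA28, replicate 2 was low for Ndufs1 (586 against 642.7) and high for Cox7a2l (535.6 against 455.2), and replicate 1 high for Ndufs7 (274.4 against 210.9). Among the controls, SHAM replicate 4 was low for Ndufs8 (143.5 against 150.2), CTLD replicate 4 low for Ndufv3 (621.9 against 712.5), VEHICLE replicate 4 low for Ndufv3 (631.6 against 671) and CTLD replicate 1 low for Atp5g3 (3508 against 4042).

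Effects of 2 models differed by limma's test of the difference in fold changes for these numbers of members. Ligation against DDC gave 12 nuclear members at 7 days (8.46% of all genes), and 2 mitochondrial and 4 nuclear at 28 days (10.3%). Ligation against cyclosporin gave 7 mitochondrial and 63 nuclear members at 7 days, all lower (11.9% of all genes). At 28 days it gave 3 and 30, of which 3 and 28 were lower (15%). DDC against cyclosporin gave 5 and 40 at 7 days, all lower (12.8%), and 11 and 35 at 28 days, of which 11 and 33 were lower (17.1%).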

How the results depend on the processing

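Of 96 calls of named members in the 6 comparisons with controls, edgeR kept 96 and DESeq2 94 (Uqcrc2 and Cox7a1 in BDL28 were lost), pseudocounts of 0.5 and 5 kept 96 each, and added copies kept 95. Total-count scaling kept 63, lost 27 and reversed 6, total count without mitochondrial genes kept 66, lost 24 and reversed 6, and quantile normalization kept 64, lost 17 and reversed 15; the cause was not tested. Leaving out 1 library kept 737 of 768.

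Quantile normalization called 5 mitochondrial members in BDL7 (all lower), 6 in BDL28 (4 higher, 2 lower), 5 in DDC7 (3 and 2) and 7 in DDC28 (4 and 3). Of all genes it called 18.8%, 23.2%, 22.8% and 26.5% higher and 19.4%, 22.5%, 23.8% and 26.5% lower in that order. Under it the log2 changes were 0.0071 for mt-Co1, 0.13 for mt-Nd1, 0.09 for mt-Atp6 and 0.20 for Atp5g3 in BDL7. In BDL28 they were 0.19 for mt-Co1, 0.036 for mt-Cytb, 0.38 for mt-Atp6, 0.017 for Uqcrc2 and 0.24 for Atp5g3. In DDC7 they were 0.18 for mt-Nd1, 0.041 for mt-Cytb and 0.17 for mt-Atp6, and in DDC28 0.06 for mt-Co1, 0.23 for mt-Nd1 and 0.20 for mt-Atp6.

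Total-count scaling called 6 mitochondrial (all lower) and 32 nuclear members (8 higher, 24 lower) in BDL28, against 13.3% of all genes lower and 38.3% higher. In DDC7 it called 36 nuclear members (13 higher, 23 lower), against 9.61% lower and 44.3% higher. Total count without mitochondrial genes called 6 (all lower) and 34 (8 higher, 26 lower) in BDL28, against 13.5% lower and 37.9% higher. The reversed changes under these scalings, in that order, were 0.013 and 0.0035 for Sdhb and 0.061 and 0.052 for Uqcrc2 in BDL28, 0.089 and 0.060 for Cox6b1 and 0.042 and 0.013 for Ndufa4 in DDC7, and 0.11 and 0.073 for Cox6b1 and 0.084 and 0.052 for Ndufa4 in DDC28.

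Relative to nuclear members, CsA7 had 0 called mitochondrial members with the nuclear median as reference or with copies added. BDL28 against BDL7 had 4 mitochondrial members called without a filter, all higher, against 5.79% of all genes higher. A fit of only the groups compared called 3 mitochondrial and 17 nuclear members there, all higher, against 8.95% of all genes higher. Why fewer were called was not tested. That fit called 1 nuclear member between the DDC days and 0 mitochondrial members between the cyclosporin days. With medians of log2 values in place of sums, the share difference was -1.01 points in DDC7, -1.60 in DDC28 and -0.77 in CsA7. These points are not comparable with those from sums, because shares from medians lie near their upper limit. By medians the mean log2 ratio of the genomes was 4.21 in CTLD, 3.94 in DDC7 and 3.79 in DDC28. By sums it was 1.44, 1.11 and 1.00. In VEHICLE and CsA7 it was 4.13 and 3.93 by medians, and 1.39 and 1.11 by sums.

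With 1 replicate left out, mitochondrial members called relative to nuclear members ran from 1 to 4 in BDL28, 0 to 6 in CsA7, 2 to 4 in BDL28 against BDL7 and 1 to 5 in CsA28 against CsA7. Mitochondrial members called ran from 0 to 1 in CsA7 (1 without CsA7 replicate 1), 4 to 11 in BDL28 against BDL7 and 0 to 1 in CsA28 against CsA7, and nuclear members from 0 to 1 in DDC28 against DDC7. Other counts stayed within 1.5 times. The difference in mitochondrial share ran from -2.38 to -1.04 points in BDL7, -1.73 to -0.24 in BDL28 and -0.46 to 0.58 in CsA28.

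Equal replicate numbers did not pair libraries: 0 of 4 pairs had a residual correlation above 0.1 in every comparison except BDL28 against BDL7, with 2 of 4. The replicate block kept 95 of 96 calls (Uqcrc2 in BDL28 was lost) and called 57 nuclear members in DDC7 in place of 56.

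Depth limits the low members: Atp5s, Cox7a1, Ndufs6b and mt-Nd6 rest on few reads. The simulated data held only the groups compared and few changed genes. Their recovery of 1.5-fold changes therefore does not give the power of the fit over 36 libraries.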

Other observations

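Ndufb1-ps, left out by the rule on names, had a mean of 758.5 normalized counts over the 36 libraries and is annotated as a long noncoding RNA of a bidirectional promoter, a level above that of the other IDs dropped for "-ps", such as Ndufab1-ps with a mean of 6.03. The share of mt-Co2 reads held by its copy Gm28661 ranged from 17.7 to 27.1% over the libraries, whereas that of mt-Atp6 held by Gm10925 was at most 50.4% with a median of 50.2%.

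Among all genes 18.5%, 22.7%, 22.1% and 24.7% were called lower in BDL7, BDL28, DDC7 and DDC28, and 20.2%, 24.1%, 24.7% and 27.9% higher. Of 12 chaperones and proteases of the mitochondrial unfolded protein response 10, 6, 6 and 6 were called lower in that order, and 0, 0, 1 and 1 higher, with Hspd1, the matrix chaperonin, at -0.68 in BDL7. Of 12 genes of mitophagy, fission and fusion 4, 1, 5 and 3 were called lower and 1, 2, 3 and 5 higher, with Bnip3, a mitophagy receptor, at 1.27 in BDL28. Of 7 genes of ATP synthase assembly and regulation, a list that includes the member Atp5s, 2, 3, 3 and 2 were called lower and 2, 1, 2 and 3 higher, with Atpif1, the inhibitor of ATP hydrolysis by the enzyme, at 0.75 in BDL7. Of 12 mitochondrial carriers and uncoupling proteins 6, 4, 2 and 3 were called lower and 2, 3, 2 and 3 higher, near or below the shares of all genes apart from the fall in BDL7 and, less so, in BDL28. Of 17 genes of electron carriers and coenzyme Q synthesis 8, 8, 9 and 8 were called lower and 1, 2, 2 and 2 higher, with Coq8b at 1.64 in BDL28.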
